A study of Danio rerio with 9 samples.

Results

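Lysosomes are the acid compartments in which cells digest proteins, lipids and sugars. The present data describe the genes that equip them in 2 zebrafish models labelled as T cell acute lymphoblastic leukaemia. Genes were taken by symbol: cathepsins, legumain, subunits and accessory proteins of the vacuolar proton pump, lysosomal membrane proteins, prosaposin, granulins and a set of acid hydrolases. A gene counted where a probe set carried exactly 1 symbol of this kind, and a gene with several was read from its brightest one on average. This gave 50 genes with 54 probe sets, out of 8793 genes with 1 symbol. Of the 22 families or genes sought, 7 had no member: hexa or hexb, gba, gla, naga, gns, gusb and tpp1 are not analysed here. No member was dropped for low signal. The gene neu3.2 entered by its letters, although sialidases of its family act mainly at the cell surface in mammals.

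Expression was measured on 9 arrays of green fluorescent cells, labelled as T-lymphoblasts, sorted from the bodies of fish with end-stage disease. In 6 samples the fish were of the hMYC-ER model, which carries human MYC joined to part of the oestrogen receptor, and in 3 they were of hlk, a heritable line prone to T cell malignancy. Not given in the sources used here are the promoter behind the transgene, the age and sex of the fish and any hormone treatment. Arrays are named by the sample numbers of the labels, where hMYC-ER has 1 to 6 and hlk has 7 to 9. Whether each array stands for its own fish is not said. The p-values set each difference against the spread of samples within the groups, which may be technical variation. The comparison asks which of these genes differ between the 2 classes of leukaemia.

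A cathepsin is made as an inactive precursor, carried to the lysosome and activated there at low pH. That pH is kept by the vacuolar ATPase, whose cytosolic V1 sector splits ATP and turns a ring in the membrane-bound V0 sector, which moves protons. Membrane proteins such as the LAMP family line and protect the compartment, and transcription factors of the MiT/TFE family are known to switch on many of these genes together. In lymphoid cells the same machinery degrades antigen receptors and prepares peptides for presentation.

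The deposited table has 1 intensity per probe set and array, already scaled by the authors to a trimmed mean of 500.1 or 500.2 on every array. Values below are log2 signals after quantile normalization, with a floor at 4, and differences are hMYC-ER minus hlk on that scale. A gene is called changed at a Benjamini-Hochberg adjusted p under 0.05 over all 8793 genes in limma's moderated test. Over all genes the median difference was -0.08, and small differences are read against it. On hlk array 7 the gapdhs control, measured near either end of its transcript as a gauge of RNA integrity, read 50.8 times as high at the 3′ end as at the 5′ end, a ratio that was 4.50 or less on the other 8 arrays. Array 7 also had the highest summed signal for the marker lists of epithelium (930.2 against at most 279.3 in hMYC-ER), skeletal muscle (939.8 against 469.2), liver (775.1 against 224.3) and exocrine pancreas (1081 against 301.0). The part of RNA integrity and of these tissues in the values of array 7 was not tested, and the calls below that change without it are given both ways. In hMYC-ER, cell type markers went against the label of T-lymphoblasts that both models share. All 8 measured B cell markers were higher in hMYC-ER, where pax5 lay at 10.82 to 11.27 against 4.92, 4.00 and 4.00 in hlk. Of 6 measured T cell markers, 5 were higher in hlk, where trac read 12.05, 10.13 and 12.64 against 6.26 to 8.88 in hMYC-ER. The summed signal of the B cell list ran from 57346 to 70968 in hMYC-ER and from 5355 to 8351 in hlk, and that of the T cell list from 1692 to 3523 and from 26493 to 33410. These sums separate the models without overlap, so that for every difference below the cell type and the model cannot be told apart.

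The lysosomal genes moved in both directions. Of the 50 members, 10 had higher signals in hMYC-ER, 8 had higher signals in hlk and 32 did not pass. The share changed was 36% among members and 21.9% among all genes. By direction, 20% of members were higher in hMYC-ER, against 10.5% of all genes, and 16% were higher in hlk, against 11.5%. The median difference of the members was 0.14. At least 2-fold changes were found in 12 members, where 13.1% of all genes had one. The 2 models did not overlap on any array in 19 members, and in 23.1% of all genes. Members were less often dim: 5 of 50 had group means under 6 in both models, against 2698 of 8793 genes. A value at the floor was found in 9 members and in 2912 of all genes. Whether brightness had a part in these shares was not tested. Within a model the members varied about as much as other genes, with a median SD of 0.31 in hMYC-ER and 0.40 in hlk, against 0.33 and 0.43 over all genes.

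**Figure D1:**
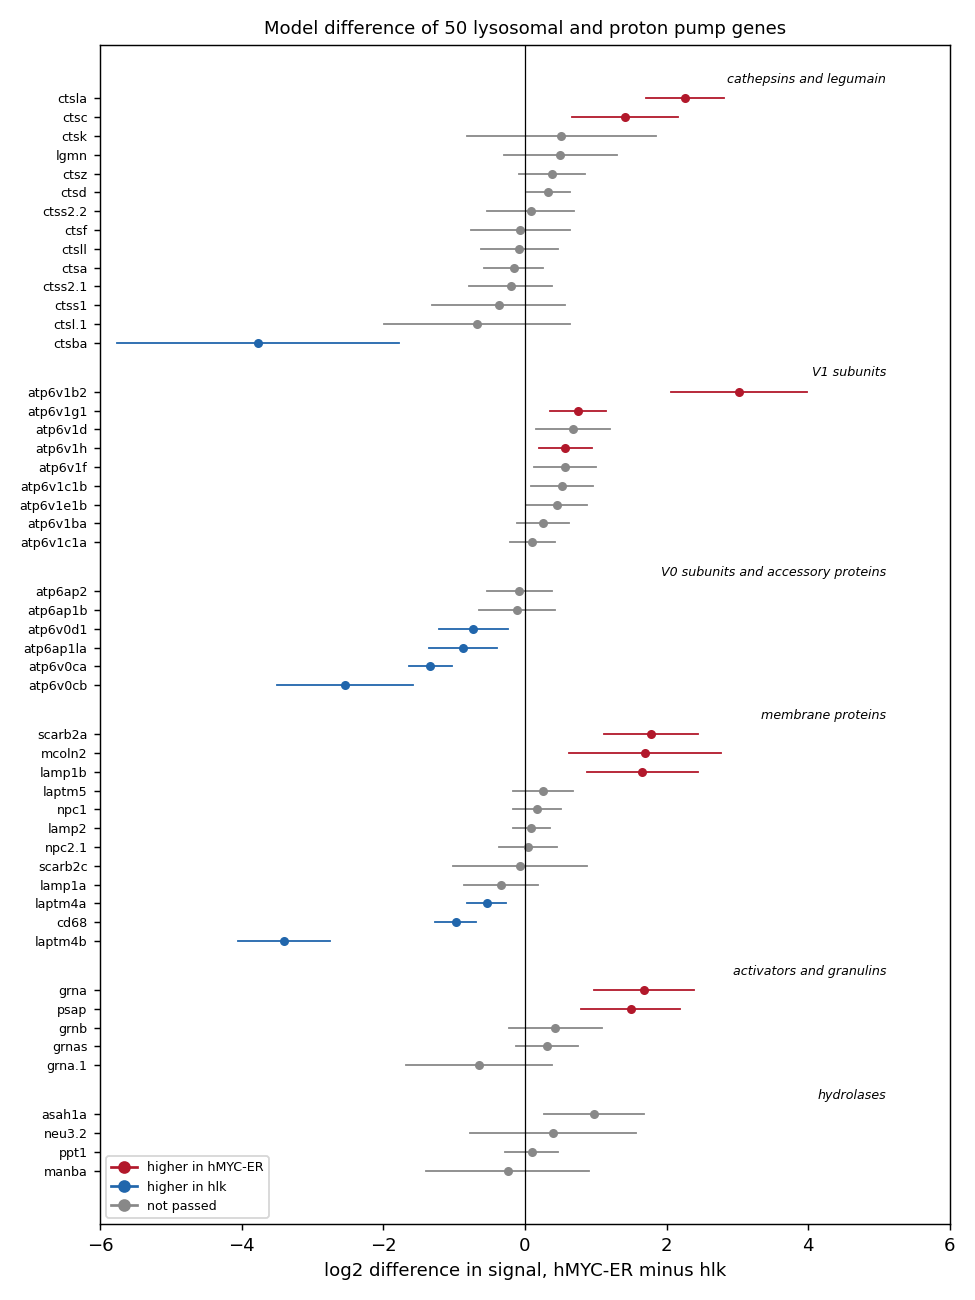
Log2 difference in signal between hMYC-ER (n = 6) and hlk (n = 3) for the 50 genes, by role. Points are the limma estimates, bars their 95% confidence intervals, red and blue mark genes past the adjusted p threshold. All 9 V1 subunit genes lie to the right of 0, as do 44% of all genes. All 6 V0 and accessory genes lie to the left, and 56% of all genes are not above 0. The value of atp6v0ca is that of its brighter probe set, while its second probe set lay at 0.51.

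The proton pump genes among the members were divided by sector. The differences of all 9 V1 genes lay above 0, as did 44% of all genes, with a median of 0.56. Of the 9, 3 passed towards hMYC-ER, as did 10.5% of all genes. The differences of the 3 V0 subunit genes among the members lay below 0 and all 3 passed, with a median of -1.33. Of all genes, 56% had a difference not above 0 and 11.5% passed towards hlk. A V0 subunit gene outside the symbol search, tcirg1b, did not pass (0.06, SE 0.12, adjusted p 0.773). It ran from 7.45 to 7.65 in hMYC-ER and read 7.23, 7.76 and 7.57 in hlk. Of the 3 accessory genes, 1 passed towards hlk and 2 did not pass. Each gene is measured by its own probe set, so the levels of the sectors are not compared with each other.

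The largest V1 difference was that of atp6v1b2, one of the 2 genes here for the nucleotide-binding B subunit. Its log2 signal in hMYC-ER ran from 6.79 to 8.00 with a median of 7.62, and in hlk it was 4.00 on arrays 7 and 8 and 5.40 on array 9. The groups lay well apart, and 2 of the 3 hlk values were at the floor. The difference was 3.02 (SE 0.42, adjusted p 0.00148), and the floor makes it an understatement.

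The stalk gene atp6v1g1 lay between 11.36 and 12.13 in hMYC-ER, with a median of 11.59, and at 10.84, 11.03 and 10.87 on arrays 7, 8 and 9. The groups did not overlap, and the difference was 0.76 (SE 0.17, adjusted p 0.0156). The gene atp6v1h, whose product couples and regulates the pump, ran from 9.64 to 10.20 in hMYC-ER with a median of 9.90, against 9.05, 9.40 and 9.58. Its highest hlk value came close to the lowest hMYC-ER value, and the difference was 0.57 (SE 0.16, adjusted p 0.0370). The difference of atp6v1g1 ran from 0.66 to 0.82 over the fits that left out 1 array, and its call ended without array 9, at the highest adjusted p of these (0.0504). That of atp6v1h ended without any 1 of 6 arrays, array 7 among them (0.42, adjusted p 0.104).

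The other 6 V1 genes did not pass. Among them were the central stalk genes atp6v1d (0.68, SE 0.23, adjusted p 0.0659) and atp6v1f (0.56, SE 0.19, adjusted p 0.0719). Both passed when array 7 was left out, at 0.90 (adjusted p 0.0274) and 0.74 (adjusted p 0.0280). The remaining 4 were atp6v1c1b (0.52), atp6v1e1b (0.45), atp6v1ba (0.25) and atp6v1c1a (0.11). The interval of atp6v1c1a, from -0.22 to 0.43, leaves room for a small change either way.

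Among V0 genes, atp6v0ca and atp6v0cb encode the proteolipid that forms the proton-carrying ring. The log2 signal of atp6v0ca ran from 10.72 to 11.05 in hMYC-ER, with a median of 10.93, and stood at 12.43, 12.01 and 12.26 on hlk arrays 7, 8 and 9. The hlk values were all about 1 unit or more above the highest hMYC-ER value, and the difference was -1.33 (SE 0.13, adjusted p 2.8e-04).

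A second probe set of atp6v0ca read otherwise. It lay between 9.98 and 10.57 in hMYC-ER, at 10.69 and 10.98 on arrays 8 and 9, and at 8.00 on array 7. Arrays 8 and 9 were thus above all hMYC-ER values and array 7 was below them. Its difference was 0.51 in the fit over all 15502 probe sets (adjusted p 0.618), where 18.9% of probe sets were changed, and -0.44 without array 7 (adjusted p 0.147). The mean of both probe sets differed by -0.41 and did not pass (adjusted p 0.350). The brighter probe set kept its call without array 7 (-1.24, adjusted p 9.3e-04). Array 7 is the one with the high gapdhs ratio, and the part of RNA integrity in this disagreement was not tested.

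The paralogue atp6v0cb lay at 4.00 to 5.80 in hMYC-ER, with a median of 4.18, and at 7.52, 6.62 and 6.75 in hlk. Most hMYC-ER values were at or just above the floor and array 2 was the highest, while every hlk value was higher still. The difference was -2.54 (SE 0.42, adjusted p 0.00346). The gene atp6v0d1, whose product links the ring to the stalk, lay at 9.84 to 10.19 in hMYC-ER with a median of 10.01, and at 11.33, 10.32 and 10.56 in hlk. Array 7 gave the highest value, and the others were only a little above hMYC-ER. The difference of -0.73 (SE 0.21, adjusted p 0.0413) became -0.43 without array 7 (adjusted p 0.0573), and the call ended without any 1 of 8 arrays.

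Of the accessory genes, atp6ap1la lay at 6.01 to 6.87 in hMYC-ER and at 7.37, 7.20 and 7.18 in hlk. The groups did not overlap, and the difference was -0.88 (SE 0.21, adjusted p 0.0182), or -0.82 without array 7 (adjusted p 0.0553). The other accessory genes did not pass, atp6ap1b at -0.11 (95% interval -0.64 to 0.42) and the prorenin receptor gene atp6ap2 at -0.08 (-0.54 to 0.39).

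**Figure D2:**
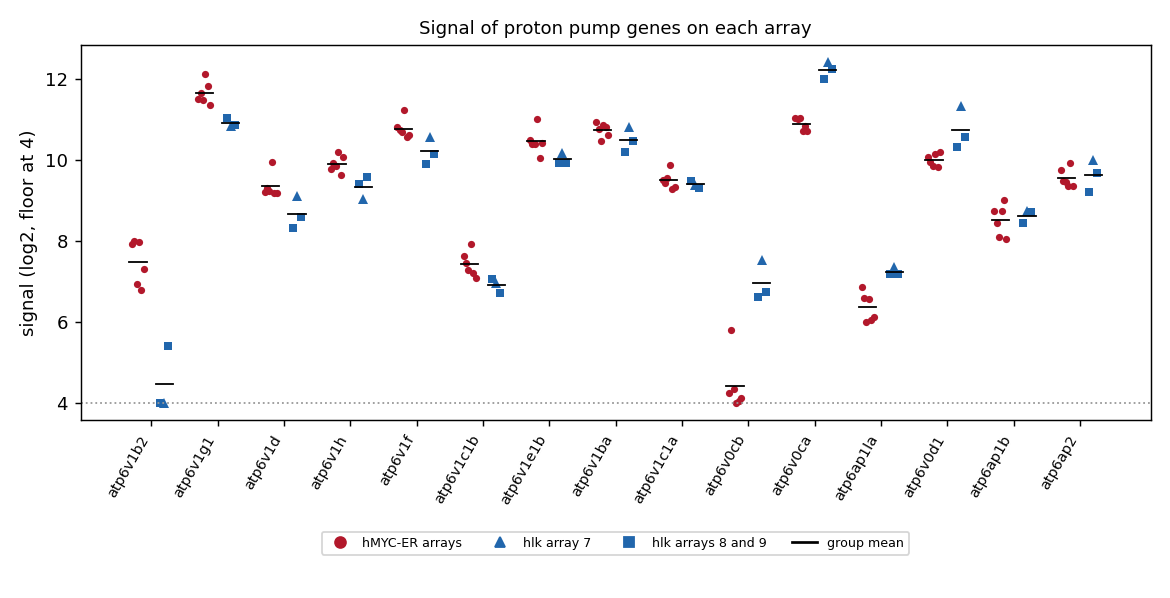
Log2 signal of the 15 proton pump genes on each array, V1 genes first (atp6v1), then V0 and accessory genes (atp6v0, atp6ap). Red circles are the 6 hMYC-ER arrays, the blue triangle is hlk array 7, blue squares are hlk arrays 8 and 9, bars are group means and the dotted line is the floor. For atp6v1b2 the hlk values sit at 4.00 to 5.40, below all hMYC-ER values, and for atp6v0ca they sit at 12.01 to 12.43, above all of them.

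Among 13 cathepsins, 2 passed towards hMYC-ER, 1 passed towards hlk and 10 did not pass. The changed share was 23.1%, close to the 21.9% of all genes. Cathepsin L, a broad endopeptidase, is represented by ctsla, which lay at 7.72 to 8.64 in hMYC-ER, with a median of 8.19, and at 5.52, 6.20 and 5.88 in hlk. All hlk values were more than 1 unit below the lowest hMYC-ER value. The difference was 2.27 (SE 0.24, adjusted p 3.9e-04), the smallest p among the cathepsins. The related genes ctsl.1 (-0.68, 95% interval -1.99 to 0.63) and ctsll (-0.08, -0.61 to 0.46) did not pass and had several values at or near the floor. Without array 7, ctsl.1 was higher in hlk (-1.52, adjusted p 0.0183), where arrays 8 and 9 read 6.61 and 6.60 and array 7 read 4.09. A second probe set of ctsl.1 did not pass with all arrays (-0.35, adjusted p 0.763) or without array 7 (-0.26, adjusted p 0.876). In the fit over all probe sets, a probe set shared by ctslb and other symbols was higher in hlk (-1.30, adjusted p 0.0410). It is not a member, and lay at 4.00 to 4.99 in hMYC-ER and at 5.78, 6.19 and 4.73 in hlk.

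Cathepsin C, the dipeptidyl peptidase that activates granule proteases in mammalian cytotoxic and myeloid cells, was steady in hMYC-ER and varied in hlk. Signals of ctsc ran from 9.32 to 9.80 in hMYC-ER, with a median of 9.54, and were 9.13, 7.47 and 7.79 on arrays 7, 8 and 9. Array 7 lay just below hMYC-ER and the other hlk arrays lay far below. The difference was 1.42 (SE 0.33, adjusted p 0.0162). It was 1.92 without array 7 (adjusted p 2.0e-04), and the call ended without array 8 or without array 9, where the smallest difference was 1.09.

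Cathepsin B, a cysteine protease with both endo- and exopeptidase activity, was low in hMYC-ER and ranged widely in hlk. Signals of ctsba lay at 4.23 to 5.65 in hMYC-ER, with a median of 4.73, and at 6.07, 9.43 and 10.51 on arrays 7, 8 and 9. Array 7 was close to the hMYC-ER range and the other hlk arrays were much higher. The difference was -3.77 (SE 0.87, adjusted p 0.0160), and -5.07 without array 7 (adjusted p 4.5e-04). The call ended without array 8 or without array 9, where the smallest difference was -2.85, and with a floor at a signal of 64 (adjusted p 0.0690).

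The other cathepsins did not pass. The aspartic protease gene ctsd differed by 0.33 (95% interval 0.03 to 0.63, adjusted p 0.112), and passed without array 8 alone among the fits that left out 1 array. Values for ctsz (0.38), ctsa (-0.16), ctsf (-0.07), ctss2.1 (-0.20) and ctss2.2 (0.08) were small, and those for ctss1 (-0.37) and ctsk (0.52) came from signals near the floor. In the gene table of assembly GRCz12tu, ctsk, ctss2.1 and ctss2.2 follow each other among protein-coding genes. A second probe set of ctss2.2 gave 0.89 and did not pass (adjusted p 0.107). Legumain, the asparaginyl endopeptidase that processes cathepsins, had a difference of 0.50 (lgmn, 95% interval -0.30 to 1.29).

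Of 12 membrane protein genes, 3 were higher in each model and 6 did not pass. The changed share was 50%, against 21.9% of all genes. By direction it was 25% each way, against 10.5% of all genes towards hMYC-ER and 11.5% towards hlk. The gene scarb2a encodes a lysosomal membrane receptor that carries glucocerebrosidase in mammals. It lay at 5.99 to 6.93 in hMYC-ER, with a median of 6.42, and at 4.00, 4.64 and 5.27 in hlk. The groups did not overlap, array 7 was at the floor, and the difference was 1.79 (SE 0.29, adjusted p 0.00321). With a floor at a signal of 64, which is 6 on the log2 scale, all hlk values were at the floor, the difference was 0.43 and the call ended (adjusted p 0.167).

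The gene lamp1b encodes one of the abundant glycoproteins that line the lysosomal membrane. It lay at 8.69 to 9.89 in hMYC-ER, with a median of 9.23, and at 8.34, 7.41 and 7.00 in hlk. All hlk values were lower, and the difference was 1.66 (SE 0.34, adjusted p 0.0101). Its paralogue lamp1a differed by -0.34 (95% interval -0.86 to 0.19) and lamp2 by 0.09 (-0.17 to 0.35), neither of which passed.

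The endolysosomal cation channel gene mcoln2 lay at 7.62 to 9.04 in hMYC-ER, with a median of 8.54, and at 6.41, 7.93 and 5.94 in hlk. The groups overlapped through array 8, the only changed member for which they did. The difference was 1.69 (SE 0.47, adjusted p 0.0338), and the call ended without any 1 of 6 arrays, array 7 among them (1.52, adjusted p 0.102).

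Towards hlk, laptm4b, which encodes a lysosomal protein with several membrane passes, was at the floor on 4 hMYC-ER arrays, at 4.08 on array 5 and at 5.17 on array 1. In hlk it read 7.86, 7.63 and 7.33. Every hlk value was more than 2 units above the highest hMYC-ER value, and the difference was -3.40 (SE 0.28, adjusted p 1.0e-04). A second, dimmer probe set was at the floor on all 6 hMYC-ER arrays and read 4.67, 4.43 and 4.88 in hlk, close to the floor. It was at least 1.58-fold higher in hlk (adjusted p 0.00300 in limma over all probe sets). The floor leaves it no spread in hMYC-ER, so this p-value gives little further weight.

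The paralogue laptm4a lay at 10.52 to 10.91 in hMYC-ER and at 11.10, 11.38 and 11.40 in hlk, without overlap. The difference was -0.54 (SE 0.12, adjusted p 0.0145). The gene laptm5, whose product directs antigen receptors of lymphocytes to degradation in mammals, did not pass (0.25, 95% interval -0.17 to 0.67). Array 7 was its highest value, at 13.34 against 12.64 and 12.50 on the other hlk arrays, and without array 7 the gene was higher in hMYC-ER (0.51, adjusted p 0.0161).

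The gene cd68 encodes a lysosomal glycoprotein used as a macrophage marker in mammals. It lay at 11.88 to 12.23 in hMYC-ER, with a median of 11.99, and at 13.21, 12.85 and 12.94 in hlk. The groups were tight and lay apart, with a difference of -0.98 (SE 0.13, adjusted p 0.00104). Of 13 listed macrophage markers, 4 were measured, of which 0 were changed (median difference -0.73). The macrophage receptor gene csf1ra was at the floor on 8 of 9 arrays and reached 5.99 on array 7. The summed signal of the list ran from 1551 to 5439 in hMYC-ER and from 5645 to 6567 in hlk. Its highest member was the pan-leukocyte gene ptprc, at 10.47 to 12.63, while marco lay at 4.00 to 6.96 and c1qc at 5.60 to 6.85. The sum is thus mostly the signal of ptprc and says little on macrophages. Of 9 listed neutrophil markers, 5 were measured and 0 were changed, and their summed signal ran from 147.7 to 262.2 in hMYC-ER and from 167.9 to 512.7 in hlk, highest on array 7. The part of these cell types in the lysosomal differences was not tested. In sorted bulk samples, fewer cells of a type and less RNA per cell cannot be told apart.

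The cholesterol transport genes npc1 (0.17, 95% interval -0.17 to 0.51) and npc2.1 (0.04, -0.37 to 0.45) did not pass, nor did scarb2c (-0.07, -1.01 to 0.88).

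Of 5 genes for prosaposin and granulins, 2 were higher in hMYC-ER, as were 10.5% of all genes. Prosaposin is the precursor of the saposins, small proteins that present lipids to lysosomal enzymes. Signals of psap lay at 11.54 to 12.38 in hMYC-ER, with a median of 12.20, and at 9.98, 11.40 and 10.49 in hlk. Array 8 came close to array 1, the lowest of hMYC-ER, and the others were well below. The difference was 1.49 (SE 0.31, adjusted p 0.00960), and 1.17 without array 7 (adjusted p 0.0264).

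Progranulin is a secreted and lysosomal growth factor, and grna encodes one of its zebrafish forms. It lay at 8.68 to 10.03 in hMYC-ER, with a median of 9.49, and at 7.87, 8.16 and 7.32 in hlk. The groups did not overlap, and the difference was 1.69 (SE 0.31, adjusted p 0.00554). The paralogue grnb did not pass (0.43, 95% interval -0.22 to 1.08). Nor did the short granulin genes grna.1 (-0.65) and grnas (0.31), whose probe sets share an accession in the annotation, so that which transcript each measures is uncertain. A probe set shared by grna.1 and grna.2, not a member, did not pass in the fit over all probe sets (-1.40, adjusted p 0.0720). It lay at 5.65 to 7.33 in hMYC-ER and at 7.52, 9.17 and 7.87 in hlk.

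None of the 4 hydrolase genes passed in limma, against 21.9% of all genes. An unadjusted p under 0.05 was found in 1, and the share of all genes at that threshold is not given here. The acid ceramidase gene asah1a came closest, with 5.98 to 7.13 in hMYC-ER and 5.58, 4.96 and 6.18 in hlk. Array 9 lay inside the hMYC-ER range, and the difference was 0.98 (SE 0.31, adjusted p 0.0554). The gene passed without array 1, without array 9 and with signals as deposited. The palmitoyl thioesterase gene ppt1 differed by 0.10 (95% interval -0.28 to 0.47), the beta-mannosidase gene manba by -0.25 (-1.39 to 0.90) and neu3.2 by 0.40 (-0.77 to 1.57). The gene neu3.2 was at the floor on 4 arrays and manba on array 1 alone.

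**Figure D3:**
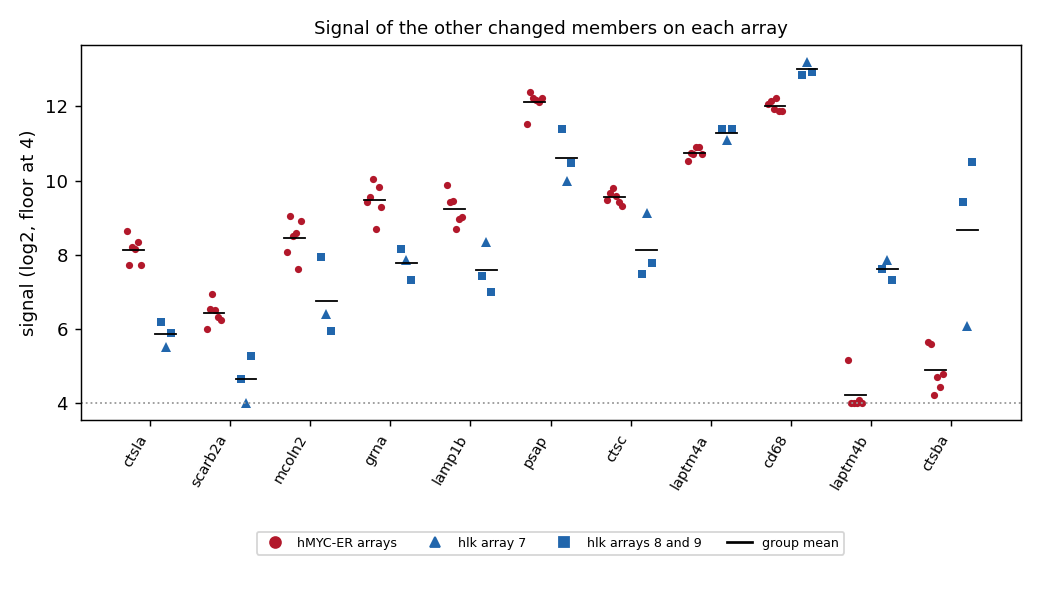
Log2 signal on each array for the 11 changed members outside the proton pump, ordered by their difference. Symbols are as in the plot of the proton pump genes. For ctsba, hlk array 7 reads 6.07 while arrays 8 and 9 read 9.43 and 10.51, and for cd68 and laptm4b the hlk arrays form a tight group above hMYC-ER.

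Several families had 2 or more paralogues among the members, and differences were set against each other in 8 chosen pairs. Other pairs, such as those among the cathepsin L genes and the remaining granulin genes, were not tested. The test was an exact two-sided permutation of the log2 ratio of both paralogues over the 84 splits of the 9 arrays, whose smallest possible p is 0.0119. The pairs were tested after their values had been seen, and the share of other gene pairs that differ this way was not computed, so that nothing particular to these paralogues can be read from it. The contrast was -2.77 for atp6v1ba over atp6v1b2, -1.99 for lamp1a over lamp1b, 2.86 for laptm4a over laptm4b, 1.86 for scarb2a over scarb2c and -0.42 for atp6v1c1a over atp6v1c1b. Each of these reached the smallest exact p (adjusted over the pairs 0.0190). For atp6v0ca over atp6v0cb the contrast was 1.204 and for grna over grnb it was 1.25, both with an exact p of 0.0357 (adjusted 0.0408). For ctss2.1 over ctss2.2 it was -0.28 (exact p 0.345). The atp6v0c contrast used the brighter probe set of atp6v0ca, while the second one differed by 0.51 with all arrays. Without array 7 the 8 contrasts kept their signs, but the 28 splits left allow no exact p below 0.0357 and no adjusted p below 0.0714 was found. The contrasts of the atp6v1b, atp6v1c1, lamp1 and laptm4 pairs were then -2.38, -0.45, -2.63 and 2.63, each at that smallest exact p. Those of the scarb2, atp6v0c and grn pairs were 1.25 (exact p 0.143), 1.02 (exact p 0.107) and 1.01 (exact p 0.179), and that of the ctss2 pair was -0.46 (exact p 0.214). In atp6v1b2, atp6v0cb, laptm4b and scarb2a a group lies partly at the floor, so that the size of their contrasts is understated.

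**Figure D4:**
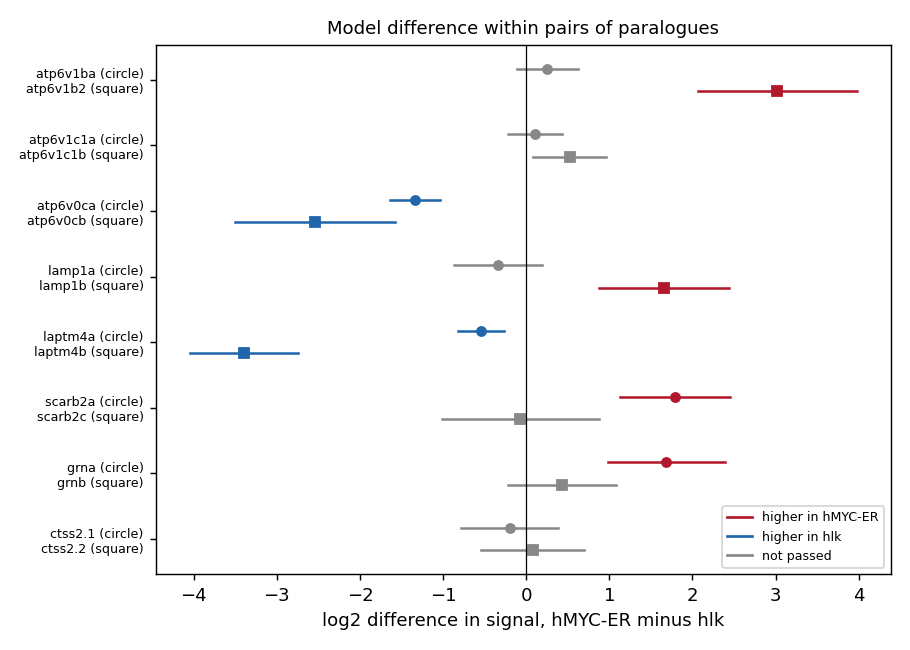
Log2 difference between hMYC-ER (n = 6) and hlk (n = 3) for both genes of 8 pairs of paralogues, with 95% confidence intervals from limma. Colours mark the call. In the lamp1 pair, lamp1b lies at 1.66 and lamp1a at -0.34, whereas both proteolipid genes of the pump lie below 0. The value of atp6v0ca is that of its brighter probe set, and its second probe set lay at 0.51.

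Leaving out array 7 left the count of changed members at 18, with 11 towards hMYC-ER and 7 towards hlk, while 22.5% of all genes were changed. Of these 18, 14 were changed in both fits and had the same direction. The calls of mcoln2, atp6ap1la, atp6v0d1 and atp6v1h were lost, and ctsl.1, laptm5, atp6v1d and atp6v1f were gained. Within hlk, array 7 was the value farthest from the others in 25 of 50 members (50%), and in 41.2% of all genes.

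**Figure D5:**
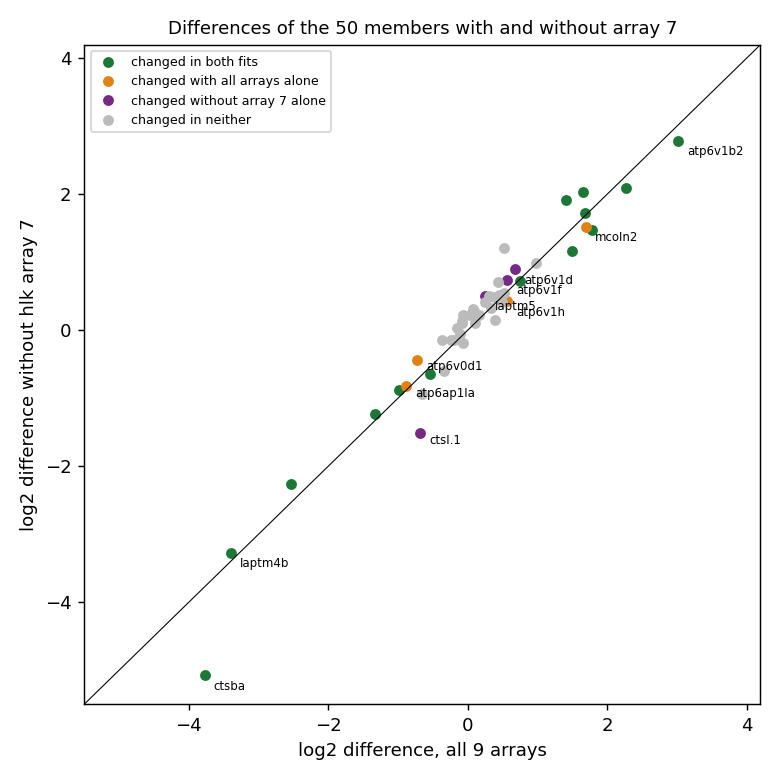
Log2 difference (hMYC-ER minus hlk) of the 50 members with all 9 arrays (x axis) and without hlk array 7 (y axis), with the line of equality. Colours give in which fit a gene was changed. Most points lie close to the line, and ctsba moves from -3.77 to -5.07.

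Other genes of the lysosomal system were described from lists of symbols outside the 50 members. Over all 6 lists, 79 of 159 genes were measured, of which 12 had more signal in hMYC-ER, 5 had more in hlk and 62 did not pass, a changed share of 21.5% against 21.9% of all genes. Without array 7, 16 of these 17 calls held and 4 were gained.

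Among 13 measured regulators of the mTORC1 and MiT/TFE pathway, which senses nutrients at the lysosome, 1 was higher in each model (median difference -0.03). The changed share was 15.4%, against 21.9% of all genes. The MiT/TFE family gene mitfa lay at 10.51 to 12.38 in hMYC-ER and at 5.82, 4.00 and 4.00 in hlk, far apart (6.85, SE 0.52, adjusted p 6.1e-05). Its product is also known as the master regulator of pigment cells. Of the other 3 measured pigment cell genes, 0 were changed. Of these, pmelb was at the floor on 8 arrays and tyr on 7. The third, dct, was above the floor on every array, at 5.12 to 6.40 in hMYC-ER and at 7.11, 5.24 and 5.14 in hlk. The part of pigment cells in the mitfa signal was not tested. The Ragulator gene lamtor4 was higher in hlk (-0.85, SE 0.22, adjusted p 0.0259). It fell short when any 1 of 5 arrays was dropped, array 7 among them (-0.64, adjusted p 0.0784). Neither of the other measured family members passed. The difference was -1.25 for mitfb (SE 0.45, adjusted p 0.0819), opposite in sign to mitfa, and -0.05 for tfe3a (95% interval -0.72 to 0.62). The kinase gene mtor did not pass with all arrays (0.62, adjusted p 0.147) and was higher in hMYC-ER without array 7 (1.00, adjusted p 0.00638).

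Of 18 measured autophagy genes, 3 passed towards hMYC-ER and 1 towards hlk (median -0.13). Their changed share of 22.2% was close to the 21.9% of all genes. The autophagy gene vmp1 lay at 11.25 to 11.47 in hMYC-ER and at 10.01, 9.58 and 9.63 in hlk, with tight groups (1.62, SE 0.12, adjusted p 4.9e-05). The autophagy-initiating kinase gene ulk1a was at the floor on all 3 hlk arrays, and its signal in hMYC-ER was at least 11.1-fold that level (adjusted p 0.00461). The cargo receptor gene sqstm1 was higher in hMYC-ER (1.59, SE 0.40, adjusted p 0.0229). The autophagosome coat gene map1lc3a was higher in hlk (-1.08, SE 0.28, adjusted p 0.0261), though not when any 1 of 4 arrays was dropped.

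Genes for sorting from the Golgi towards endosomes and lysosomes had 4 of 11 measured members pass towards hMYC-ER and 1 towards hlk (median 0.21). The changed share was 45.5%, against 21.9% of all genes. Subunits of the clathrin adaptor AP-1 went opposite ways. The large beta subunit gene ap1b1 lay at 9.60 to 9.95 in hMYC-ER and at 11.76, 11.94 and 11.53 in hlk (-2.00, SE 0.12, adjusted p 2.0e-05). The gamma subunit gene ap1g1 lay at 9.87 to 10.66 in hMYC-ER and at 8.89, 9.27 and 8.82 in hlk (1.25, SE 0.19, adjusted p 0.00268). Neither pair of groups overlapped. The small subunit gene ap1s1 (0.97, adjusted p 0.00351) and the AP-3 gene ap3b1a (0.64, adjusted p 0.00245) moved the same way as ap1g1.

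Of 25 further acid hydrolase and lysosomal membrane genes, 3 passed towards hMYC-ER and 2 towards hlk (median 0.14). Their changed share of 20% was close to the 21.9% of all genes. The carboxypeptidase gene scpep1 lay at 9.41 to 10.14 in hMYC-ER and at 8.40, 8.01 and 8.41 in hlk (1.52, SE 0.19, adjusted p 9.5e-04). The ganglioside activator gene gm2a (1.46, adjusted p 0.00339) and the galactosylceramidase gene galcb (1.16, adjusted p 0.00649) were higher in hMYC-ER, and the prolylcarboxypeptidase gene prcp was higher in hlk (-1.40, adjusted p 0.00562). Without array 7 the fucosidase gene fuca1.1 also passed towards hMYC-ER (1.00 with all arrays, adjusted p 0.0589, and 1.41 without, adjusted p 0.00648). The aspartylglucosaminidase gene aga passed towards hlk (0.04 with all arrays, and -0.77 without array 7, adjusted p 0.0390).

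None of 10 measured genes for membrane fusion and tethering was changed by limma, against 21.9% of all genes. The genes vps33a (0.46, adjusted p 0.0547) and rab7a, for a late endosome GTPase (0.36, adjusted p 0.0862), came closest. Both passed without array 6. The SNARE gene stx8 did not pass with all arrays (0.72, adjusted p 0.112) and was higher in hMYC-ER without array 7 (1.02, adjusted p 0.0357). Of these 10, 4 had an unadjusted p under 0.05 in limma. The share of all genes at that unadjusted threshold is not given here, so nothing particular to this list can be read from it. Among cathepsin inhibitors, 2 were measured. The cystatin C gene cst3, an inhibitor of cysteine cathepsins, lay at 8.28 to 9.55 in hMYC-ER and at 7.77, 4.52 and 4.77 in hlk. Array 7 was the highest of hlk, and the difference was 3.36 (SE 0.68, adjusted p 0.00891), or 4.40 without array 7 (adjusted p 1.3e-04). The call held in each of the 9 fits that left out 1 array. The other inhibitor gene, cst14b.1, did not pass (-0.16, adjusted p 0.831).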

How the data were processed

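Total RNA of 9 sorted samples was hybridised to Affymetrix zebrafish arrays as labelled cRNA, per the labels' protocols. The deposited table holds 1 linear intensity per probe set, scaled by the authors to a common trimmed mean per array, which was checked on the values; the algorithm behind it is not stated there. The 115 control probe sets were left out. Array medians differed by up to 0.30 on the log2 scale, so the other 15502 probe sets were quantile normalized, floored at a signal of 16 and taken to log2. Probe sets with exactly 1 symbol in the platform annotation gave 8793 genes, each read from its brightest probe set, and 3 probe sets with several symbols that matched the search were left out. The models were compared for all genes with lmFit and eBayes (limma 3.58.1, R 4.3.3), and p-values were adjusted over all genes by Benjamini-Hochberg, with a threshold of 0.05. The code was tested on simulated data. Figures were drawn with matplotlib 3.10.9.

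Genes named are all changed members, the 2 smallest p where no member of a role passed, members whose call rested on 1 array, and up to 4 changed genes per pathway list, or 2 where none passed; other members are given in brief. Members, pathway lists and marker lists (those for macrophages, neutrophils, osteoclasts, B cells, T cells, red cells, thrombocytes, endothelium, epithelium, muscle, liver, pancreas and pigment cells) were chosen with earlier results of these data known. Osteoclast markers, which share proton pump and cathepsin genes with lysosomes, had 0 of 3 measured genes changed. Of the lists not mentioned elsewhere, those for red cells, thrombocytes, endothelium, epithelium, muscle and pancreas had 0 changed genes in limma and the liver list had 1 of 4; array 7 stood out in several of these lists, as given above. Batches and scan dates are unknown here, and any that went with the models cannot be told apart from them. The number of arrays limits the precision.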

Additional observations from a re-analysis of the deposited data

Results flagged for a closer look

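Within the 6 hMYC-ER arrays, 8 of 50 members had 1 array that stood apart from the rest by Dixon's test, where chance marks about 1 in 20 groups. The share was 16% of members and 12.2% of the 8527 genes that varied in hMYC-ER. Where values sit at the floor the test is set by the floor, which concerns ctsll, laptm4b, manba and atp6v0cb. Among genes with no hMYC-ER value at the floor, 4 of 43 members (9.3%) and 6.17% of all genes had such an array. Groups of 3, as in hlk, were not tested. On array 1, psap was low at 11.54 (next value 12.13), manba was at the floor of 4.00 (next 5.69) and laptm4b was high at 5.17 (next 4.08). On array 4, ctss2.2 read 10.21 (next 9.71), atp6v1d read 9.96 (next 9.31) and atp6v1f read 11.24 (next 10.80), each the highest. On array 2, atp6v0cb read 5.80 (next 4.35), and on array 6, ctsll read 4.82 while the other arrays were at the floor. Of these genes, psap, laptm4b and atp6v0cb were changed, and their calls held in every fit that left out 1 array.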

How the results depend on the processing

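No paired analysis was run because the labels state no pairing between the groups. The 18 changed members became 13 with array weights, 15 with a floor at 64, 16 with a floor at 1, 17 with arrays centred and 20 with signals as deposited. The genes gained with signals as deposited were asah1a and atp6v1c1b. With a 2-fold minimum, 4 members were higher in hlk in place of 8. An exact permutation test called 0 members after adjustment over all genes, and 0 in each direction, since its smallest adjusted p was 0.0583. Unadjusted, 23 of 50 members had an exact p under 0.05, as did 2799 of all 8793 genes. By limma, 24 members had an unadjusted p under 0.05, and the share of all genes at that threshold is not given here. Leaving out 1 array gave 14 to 18 changed members, 8 to 11 higher in hMYC-ER and 6 to 7 higher in hlk. In these fits 11 of the 18 calls held every time, and 0 of the 18 turned direction there or in the 7 other fits per gene. For the pathway lists the count ranged from 15 to 20, with 12 to 15 higher in hMYC-ER and 3 to 7 higher in hlk. The lowest, 3, came without array 6 and without array 8. For most of these settings the changed share of all genes is not given here. A rise or fall in the counts therefore shows nothing particular to the members or lists. Calls that ended under other settings, beside those given with the genes, were atp6v1g1, mcoln2, atp6ap1la, atp6v0d1 and atp6v1h with array weights, atp6v0d1 and atp6v1h with a floor at 1, atp6v0d1 with a floor at 64 and atp6v1h with arrays centred; the cause was not tested. Signals near the floor limit 9 members, and 5 had group means under 6 in both models.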
